A study of Sus scrofa with 6 samples.

Results

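CD4 T cells without Foxp3 were the 673 cells, of 83559 kept cells in 6 single-cell RNA libraries, that carried T cell receptor complex and Cd4 RNA and no RNA of genes that mark other cells. The members were chosen by their UMIs (unique molecular identifiers, 1 per captured RNA molecule). A kept cell had 500 or more gene UMIs from 300 or more genes, with no more than 20% of them mitochondrial. A member had at least 2 UMIs of Cd3d, Cd3e and Cd3g together, at least 1 Cd4 UMI and 0 UMIs of Foxp3, Cd8a, Cd8b1, Trdc, Csf1r and Csf3r. Members made up 0.805% of kept cells and 12.2% of the 5504 cells with at least 2 Cd3 UMIs, called Cd3-positive cells here.

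Per the labels, each library held unsorted cells from collagenase-digested skin of red duroc pigs and was made with 10x Chromium 3' v3 chemistry. A 1 mg deferoxamine patch was used on 4 schedules, called pretreatment (given 2 weeks ahead of radiotherapy), continuous (kept up for 18 weeks), acute (12 weeks of recovery) and chronic (4 weeks after recovery). Deferoxamine is an iron chelator. Irradiated skin without a patch and normal skin were the references, and each label had 1 library. The labels gave neither the number of animals behind a library nor their age or the radiation dose. The files went against the labels, as all 32285 gene features of every library were mouse Ensembl genes, 4 libraries carried tags from mouse-directed hashtag antibodies, and the title of the series spoke of an anti-JUN therapeutic and adhesions. Libraries are therefore called by their labels, and nothing here is ascribed to radiation or patch.

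CD4 T cells recognise peptides on MHC class II molecules and direct other immune cells through the cytokines they release. Those with the regulator T-bet make interferon-gamma, those with GATA3 make interleukins 4, 5 and 13, and type 17 cells make interleukins 17A, 17F and 22, which act on epithelium and draw neutrophils. Foxp3 is the defining regulator of regulatory T cells. In mouse skin, interleukin 17 also comes from gamma-delta T cells, which carry a different receptor.

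Members numbered 10 in pretreatment, 208 in continuous, 83 in acute, 233 in chronic, 78 in irradiated and 61 in normal. Their median UMI counts were 4941, 3253, 1870, 2777, 1790.5 and 2020 in that order. The rule chose on Cd3 and Cd4 RNA, so these are descriptions: 416 members had 1 Cd4 UMI and 257 had more, and 172 had exactly 2 Cd3 UMIs. Just outside stood 231 cells that missed only by having 1 Cd3 UMI, 513 with Cd4 but no Cd3 UMI, 150 that had a Foxp3 UMI and 229 with a Csf1r or Csf3r UMI. Cd3-positive cells that missed only by having no Cd4 UMI outnumbered the members in every library. They numbered 17 in pretreatment, 278 in continuous, 355 in acute, 530 in chronic, 297 in irradiated and 235 in normal. In single-cell data a gene with few UMIs is often missed, so a member can be a cell whose Foxp3 RNA was not captured. Shared cell barcodes numbered 2 to 143 per pair of libraries, at most 0.801% of the smaller library. Doublets were kept, and Scrublet called 0 to 13.1% of members doublets per library.

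Genes that the rule did not use also marked the members as T cells. Trac, the constant chain of the alpha-beta receptor, stood at 460, 401, 361, 438, 345 and 359 CPM from pretreatment to normal, where CPM is the UMIs of a gene per 1000000 gene UMIs of the same cells, summed over members. Icos, a costimulatory receptor, lay between 1453 and 1696 CPM. In the fits between classes given below, Trac was called higher only over gamma-delta T cells and Icos only over CD8 T cells. Neither gene tells members from T cells with Foxp3. Trdc was 0 by rule, and the gamma-delta marker list summed to between 0 and 73.2 CPM. RNA of other cell types was present as well: the neutrophil list summed to 65.7 CPM in pretreatment, 1877 in continuous, 15596 in acute, 6152 in chronic, 14233 in irradiated and 10211 in normal. The fibroblast list summed to 378, 183, 5955, 1787, 3249 and 2512 CPM in that order. The part of this RNA in the results was not tested.

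Members were more common in the continuous and chronic libraries than in irradiated. They made up 0.667% of kept cells in pretreatment (95% Clopper-Pearson interval 0.32 to 1.22), 2.33% in continuous (2.03 to 2.67), 0.344% in acute (0.274 to 0.426), 2.54% in chronic (2.23 to 2.88), 0.353% in irradiated (0.279 to 0.44) and 0.344% in normal (0.264 to 0.442). The share in chronic was 7.20 times that in irradiated (5.55 to 9.43), and the share in continuous 6.62 times (5.08 to 8.70). Acute and irradiated differed by -0.00863 percentage points (-0.12 to 0.102), and irradiated and normal by 0.00812 points (-0.114 to 0.127). These intervals cover counting error within 1 library only, and no test between labels was possible with 1 library each. Continuous and pretreatment held no hashtag antibodies while irradiated did, so for them label and library type cannot be told apart in any comparison here.

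Libraries also differed in depth. Pretreatment was the deepest, and among the others continuous and chronic, which had the higher shares, were also the deeper ones. The median kept cell held 9651 UMIs in pretreatment, 3267 in continuous, 1385 in acute, 2762 in chronic, 1640 in irradiated and 1441 in normal. With every cell thinned to 1000 UMIs, members were 0.571% of cells in continuous, 0.828% in chronic and 0.156% in irradiated, and the ratios to irradiated were 3.66 for continuous and 5.31 for chronic. Among Cd3-positive cells the shares were 11.2% in pretreatment, 23.0% in continuous, 8.76% in acute, 13.7% in chronic, 7.93% in irradiated and 6.97% in normal. Thinned, continuous and irradiated differed there by 1.73 points (-2.66 to 5.84), and chronic and irradiated by 0.382 points (-3.66 to 3.89). So the higher share among all cells remained at equal depth, while a higher share among T cells was not detectable. With doublet calls removed, the unthinned share of Cd3-positive cells was 11.8% in irradiated. The difference of chronic from it was 2.97 points (-0.433 to 6.14) and that of continuous 12.1 points (8.07 to 16.0). Irradiated then lay above normal by 4.29 points (0.95 to 7.72). Doublet calls took 40.7% of Cd3-positive cells and 11.5% of members in irradiated, against 19.5% and 13.1% in normal. Calling rules differed too, with Scrublet's own threshold in irradiated and continuous, and the highest scores in normal and chronic.

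**Figure D1:**
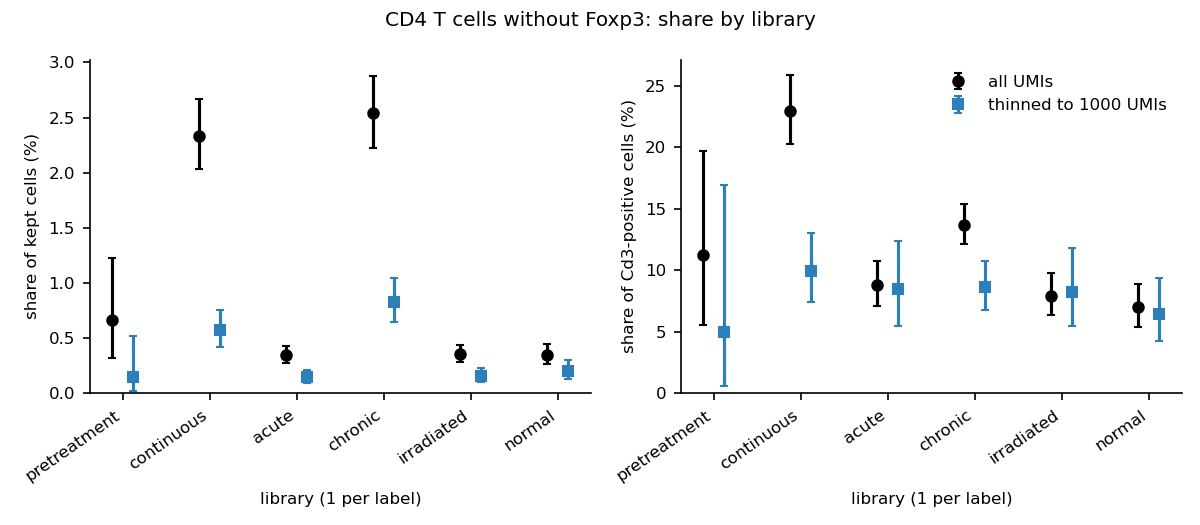
Share of CD4 T cells without Foxp3 among kept cells (left) and among Cd3-positive cells (right) in each library, in percent, with 95% Clopper-Pearson intervals. Circles use all UMIs and squares cells thinned to 1000 UMIs; continuous and chronic stand above the other libraries on the left in both, and all thinned intervals overlap on the right.

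Interleukin 17 RNA was the most frequent helper cytokine RNA in these cells. At least 1 UMI of Il17a or Il17f was found in 340 of 673 members (50.5%), of Ifng in 72 (10.7%) and of Il4, Il5 or Il13 in 35 (5.20%), while 269 (40.0%) had none of them. Il17a and Il17f, whose products form dimers with each other, occurred together in 211 members. Ifng and Il17 met in 22 members. Of the 81 members with Il22, an epithelial growth and defence signal, 72 also had an Il17 UMI.

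The share of members with a UMI of Il17a or Il17f was 0 of 10 in pretreatment, which allows up to 30%. It was 61.1% in continuous (54.1 to 67.7), 62.7% in acute (51.3 to 73.0), 48.9% in chronic (42.3 to 55.5), 41.0% in irradiated (30.0 to 52.7) and 24.6% in normal (14.5 to 37.3). The intervals of continuous, acute and chronic did not overlap that of normal, while those of acute, chronic and irradiated overlapped one another. The interval of continuous lay above that of irradiated. Myeloid cells, those with Csf1r or Csf3r and no Cd3 UMI, should lack these genes. Their share was 0.652%, 4.32%, 3.63%, 2.83%, 3.32% and 1.46% from pretreatment to normal. Thinned to 1000 UMIs, the members' shares were 55.3% in continuous, 52.7% in acute, 39.4% in chronic, 36.9% in irradiated and 20.4% in normal, and the intervals of continuous (48.3 to 62.3) and irradiated (25.3 to 49.8) then overlapped.

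Among other T cells, gamma-delta T cells (Cd3-positive with Trdc) carried a UMI of Il17a or Il17f in 89.2% of cells in continuous, 72.0% in acute, 75.6% in chronic, 75.0% in irradiated and 71.0% in normal. Only in acute did their interval (65.0 to 78.2) overlap that of the members. Thinned to 1000 UMIs, the gamma-delta shares were 80.1%, 60.2%, 66.0%, 66.4% and 62.8% in those 5 libraries. T cells with Foxp3 had one in 13.9%, 21.7%, 19.8%, 25.0% and 8.16% in the same order. CD8 T cells had one in 8.11%, 7.14%, 8.26%, 0% and 5.15%, where the 0 of 43 in irradiated allows up to 6.98%.

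**Figure D2:**
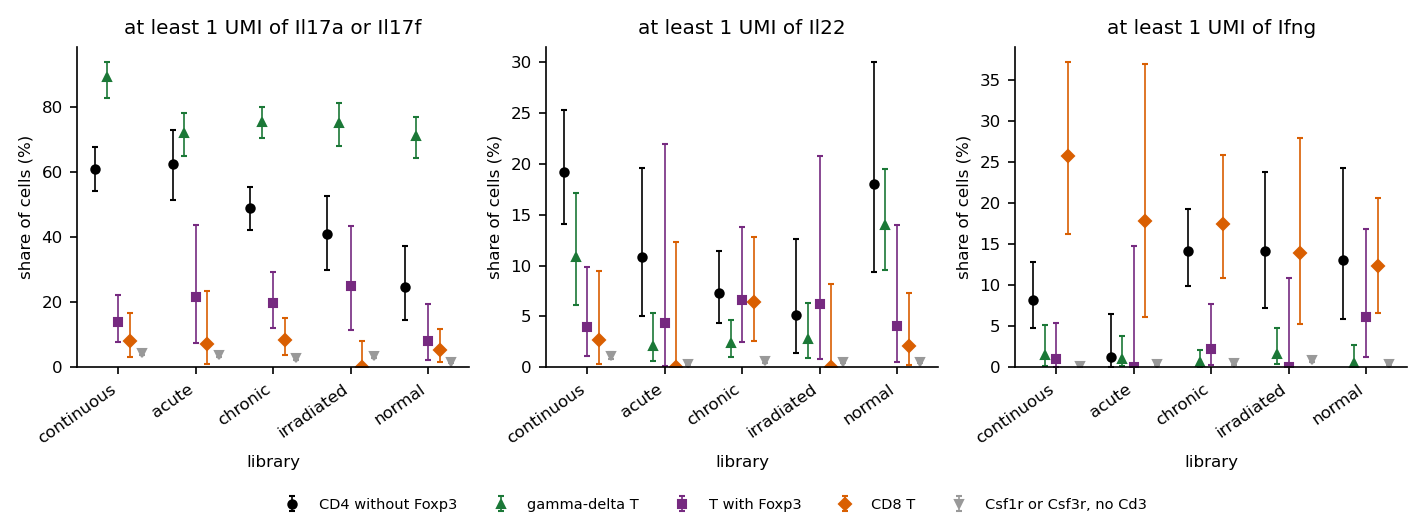
Share of cells, in percent, with at least 1 UMI of Il17a or Il17f (left), Il22 (middle) and Ifng (right) in 5 libraries, for CD4 T cells without Foxp3, gamma-delta T cells, T cells with Foxp3, CD8 T cells and cells with Csf1r or Csf3r and no Cd3. Bars are 95% Clopper-Pearson intervals. By their points for Il17, CD4 T cells without Foxp3 lie below gamma-delta T cells and above the other classes in all 5 libraries. Their interval overlaps that of gamma-delta T cells in acute, and that of T cells with Foxp3 in irradiated and normal.

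Il22 was found in 0 of 10 members in pretreatment, and in 19.2% in continuous (14.1 to 25.3), 10.8% in acute (5.08 to 19.6), 7.30% in chronic (4.31 to 11.4), 5.13% in irradiated (1.41 to 12.6) and 18.0% in normal (9.36 to 30.0). Shares in myeloid cells were between 0 and 1.12%. Ifng, the type 1 cytokine, was found in 20.0% in pretreatment (2 cells), 8.17% in continuous, 1.20% in acute (1 cell), 14.2% in chronic, 14.1% in irradiated and 13.1% in normal, against at most 0.834% in myeloid cells. Thinned to 1000 UMIs, the Ifng shares were 4.85% in continuous, 1.35% in acute, 7.79% in chronic, 7.69% in irradiated and 7.41% in normal. The unthinned acute share lay below the others, with an interval of 0.0305 to 6.53% that overlapped those of pretreatment, continuous and normal.

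The RNA level followed the shares only in part, and few cells held most of the UMIs. Il17a stood at 0 CPM in pretreatment, 2003 in continuous, 1635 in acute, 1366 in chronic, 633 in irradiated and 639 in normal. Il17f stood at 0, 3510, 1064, 1208, 796 and 385 CPM in the same order. Both were highest in continuous, where 98 members held 1913 Il17a UMIs, 532 of them in 1 cell, and the top 10% of members by UMIs held 77.8%. Il22 stood at 0, 1096, 146, 184, 47.9 and 398 CPM, with 1047 UMIs in 40 members in continuous and 95.8% of them in the top 10% of members.

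Areg, the epidermal growth factor family member amphiregulin, followed at 411, 874, 332, 645, 264 and 183 CPM. Ifng stood at 65.7, 51.3, 19.5, 165, 254 and 117 CPM, and 31 of the 53 UMIs in irradiated came from 1 cell. Il13, a type 2 cytokine, was listed in 13 members in continuous and in 4 in irradiated, where 20 of 25 UMIs came from 1 cell. In pretreatment, 1 cell held all 32 Il5 UMIs. A ratio of summed UMIs cannot tell more cells with a gene from more RNA per cell, which is why cell counts stand beside it.

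**Figure D3:**
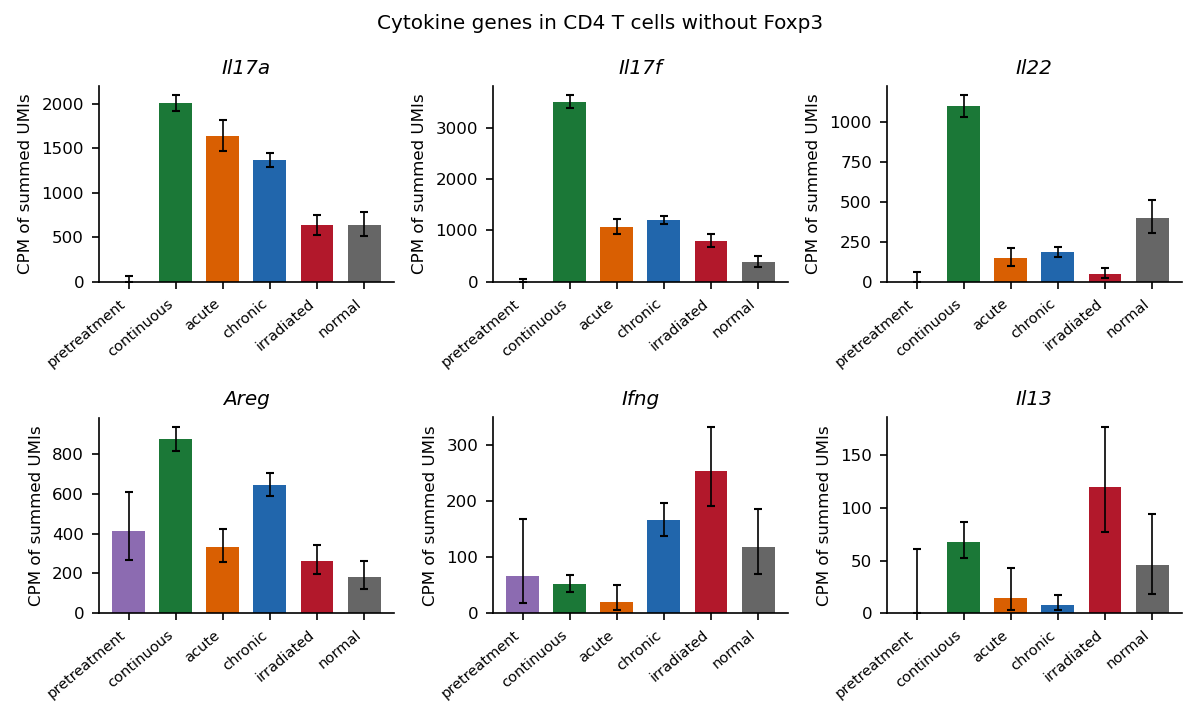
CPM of summed UMIs of 6 cytokine genes in CD4 T cells without Foxp3 in each library, with exact 95% Poisson intervals (counting error only). Il17a, Il17f, Il22 and Areg were highest in continuous, and Ifng and Il13 in irradiated.

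Members with and without Il17 RNA differed in other genes, given here as a description pooled over libraries, since the split is by UMIs of the same cells. The 340 members with a UMI of Il17a or Il17f had 22.9 times the Il22 CPM of the 333 without (16.4 to 33.0), 6.28 times the Areg (5.27 to 7.53), and 4.27 times the Lif (2.31 to 8.60). Lif encodes a cytokine of the interleukin 6 family. Il1r1, the interleukin 1 receptor that drives type 17 cells, stood at 2.99 times (2.13 to 4.27), Ccr6, a chemokine receptor of type 17 cells, at 2.75 times (1.60 to 4.97), and Tmem176a at 2.68 times. All these genes were higher in 4 of 4 libraries that had 20 cells on each side. Il23r, the interleukin 23 receptor, was at 6.02 times but higher in 3 of 4.

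Other genes were lower in members with Il17 UMIs. Ifng was at 0.157 times (0.113 to 0.215), Tbx21, which encodes T-bet, at 0.156 times (0.0697 to 0.317) and Nkg7, a cytotoxic granule gene, at 0.183 times (0.131 to 0.253). Ikzf2, which encodes Helios and marks many regulatory T cells, was at 0.118 times (0.0889 to 0.155), and Itgb8, an integrin that activates TGF-beta, at 0.113 times. Tcf7, a regulator of naive and memory T cells, was at 0.322 times (0.24 to 0.43). Each was lower in 4 of 4 libraries. Other members of the type 1 list did not follow, with Stat4 at 0.972 times, Il12rb1 at 1.39 times and Cxcr6 at 1.33 times, and neither did Il7r, a receptor of resting T cells, at 1.31 times. Icos (0.915 times) and Rora (1.18 times), a regulator gene of type 17 and innate lymphoid cells, were near equal on both sides.

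**Figure D4:**
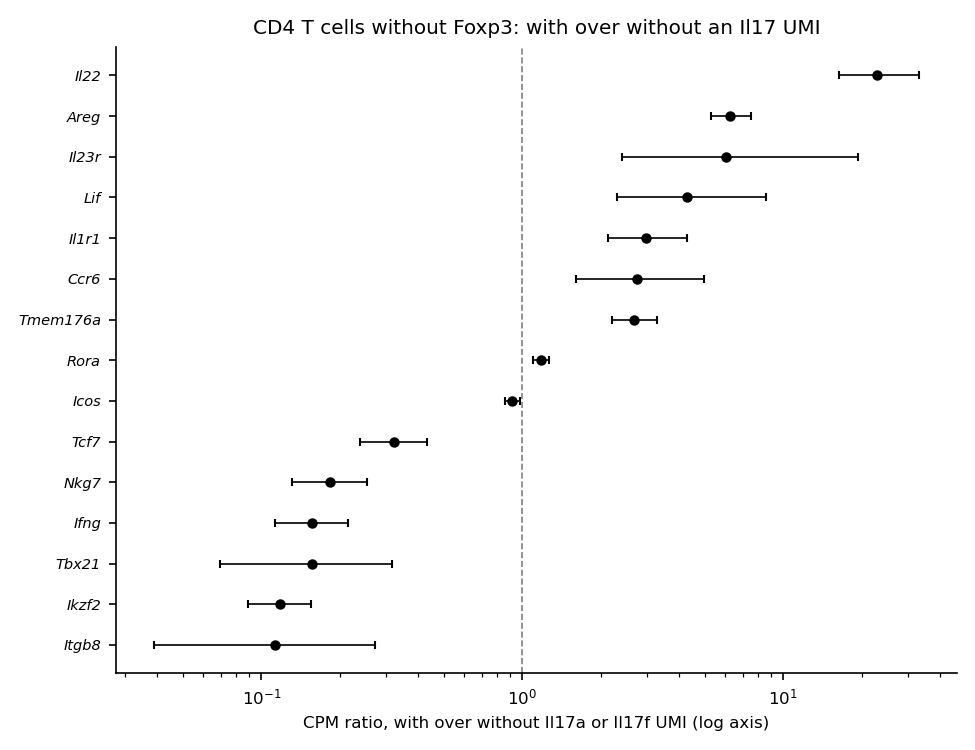
CPM ratio of genes in members with over members without a UMI of Il17a or Il17f, pooled over libraries, on a log axis with exact 95% intervals. Shown are the genes named in the text for this split except Stat4, Il12rb1, Cxcr6 and Il7r, which did not follow and are not drawn. The dashed line is 1, Icos and Rora lie next to it, and Il22 lies farthest to the right.

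The 72 members with Ifng had 3.26 times the Tbx21 CPM of the other 601 (1.63 to 6.17), 4.92 times the Il12rb2 (2.49 to 9.41), a subunit of the interleukin 12 receptor, and 3.15 times the Nkg7 (2.30 to 4.28). Their Il17f stood at 0.0867 times (0.0636 to 0.115). Only chronic had 20 cells on each side, and it showed the same directions for these 4 genes.

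Against CD8 T cells of the same libraries, the members carried less cytotoxic and more type 17 RNA. CD8 T cells here are Cd3-positive with Cd8a or Cd8b1 and without Cd4, Foxp3 or Trdc. In edgeR's quasi-likelihood fit over 5 libraries with the library as block, called genes needed a Benjamini-Hochberg adjusted p under 0.05 and a 2-fold difference. Of 3590 genes, 81 (2.26%) were higher and 52 (1.45%) lower in members. The replicates are libraries with different labels, so p-values measure the spread of the class difference over labels. Libraries enter as they stand, with no statement about animals.

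Of 15 tested cytotoxic genes, 11 were lower and 0 higher, with a median log2 fold change of -2.53 beside -0.02 over all genes. Gzma, which encodes granzyme A, averaged 15.8 ± 24.6 CPM in members and 1009 ± 192 CPM in CD8 T cells (SD, n = 5 libraries), a log2 fold change of -6.45 (SE 0.47, edgeR adjusted p = 5.58e-05). Gzmk was 0 to 1.31 CPM in members and 54.9 to 92.7 CPM in CD8 T cells (-6.57). Prf1, which encodes perforin, and Gzmb were lower too (-4.60 and -2.53). Ccl5, a chemokine of effector CD8 T cells, ranged from 23.0 to 139 CPM in members and from 806 to 2382 CPM in CD8 T cells. None of these ranges overlapped.

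Of 10 type 17 genes, 6 were higher (median 1.60 beside -0.02): Il17a, Il17f, Il1r1, Tmem176a, Maf and Rora. Il17a averaged 1255 ± 609 CPM in members and 266 ± 351 CPM in CD8 T cells, a log2 fold change of 2.86 (SE 0.55, edgeR adjusted p = 0.0127), and the call was lost without the acute library (2.57) and with no replicate block (2.08). Without the block the call of Il17f was lost as well (2.99). Of 13 costimulation and checkpoint genes, 4 were higher (Ctla4, Icos, Tnfrsf4 and Tnfrsf18) and Cd27 was lower (median 0.26). Tnfrsf4, the costimulatory receptor OX40, averaged 352 ± 121 CPM in members and 30.2 ± 16.5 CPM in CD8 T cells (3.78, SE 0.29). Tnfsf8, which encodes CD30 ligand, rose by 3.60, Ccr4, a skin-homing chemokine receptor, by 3.22 and Ermn by 4.45 on the log2 scale. Areg averaged 459 ± 290 CPM in members and 58.5 ± 71.3 CPM in CD8 T cells (3.40). Tcf7 and Ccr7 were the 2 lower of 8 naive and central memory genes, against 0 higher.

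Against T cells with Foxp3, 51 of 3312 genes (1.54%) were higher in members and 59 (1.78%) lower. Of 18 regulatory genes other than Foxp3, 10 were lower and 0 higher, with a median of -1.19 beside 0.00. Ikzf2 averaged 187 ± 143 CPM in members and 1690 ± 401 CPM in T cells with Foxp3 (log2 fold change -3.34, SE 0.21, edgeR adjusted p = 1.15e-05). Klrg1 (-3.87), Itgb8 (-3.20), Izumo1r (-2.51), which encodes a folate receptor-like protein, and Ikzf4 (-1.92) followed. Ctla4, a checkpoint receptor that many activated T cells carry, did not pass. Of 10 costimulation and checkpoint genes, 4 were lower (Tnfrsf9, Tnfrsf4, Tnfrsf18 and Cd27) and Pdcd1 was higher (median -0.44). Higher in members were Tnfsf8 at 383 ± 83.0 CPM against 46.9 ± 49.5 CPM in T cells with Foxp3 (3.36), Il17f (2.90), Il17a (2.87), Tnfsf11 (2.78), which encodes RANK ligand, and Tcf7 (2.06). Without the library labelled chronic, the calls of Il17a and Tcf7 were lost, and Il17a also without normal, with no replicate block and with 1000 UMIs per cell. Without chronic the fit counted 30 higher and 35 lower genes, and without continuous it counted 36 lower.

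Against gamma-delta T cells (Trdc with no Cd4, Foxp3 or Cd8), 130 of 5413 genes (2.40%) were higher in members and 154 (2.85%) lower. Of 14 costimulation and checkpoint genes, 7 were higher and 2 lower. Cd28, the main costimulatory receptor of alpha-beta T cells, averaged 438 ± 166 CPM in members and 23.6 ± 11.5 CPM in gamma-delta T cells (log2 fold change 4.25, SE 0.19, edgeR adjusted p = 9.9e-08). Cd40lg, the ligand by which CD4 T cells help B cells and dendritic cells, averaged 75.9 ± 32.1 CPM in members and 1.59 ± 2.11 CPM in gamma-delta T cells (5.50). Themis (5.18) and Ubash3a (4.78), which act in receptor signalling, and Tnfrsf4 (5.28) were higher too.

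No type 17 gene was higher than in gamma-delta T cells and 5 of 17 were lower, namely Il17a, Aqp3, Il23r, Cd163l1 and Maf. The list's median was -0.86 beside 0.02, and the call of Il17a was lost with no replicate block. Il17f was not called, and Cd163l1, a scavenger receptor gene of mouse gamma-delta T cells that make interleukin 17, stood at 8.82 ± 10.2 CPM in members and 829 ± 199 CPM in gamma-delta T cells (-6.59). Blk, a Src family kinase (-5.51), and Zbtb16, which encodes PLZF (-4.43), were lower too. Of 9 unconventional T cell genes, 8 were lower, 4 of them gamma-delta receptor segments that the Trdc rule comes close to choosing.

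**Figure D5:**
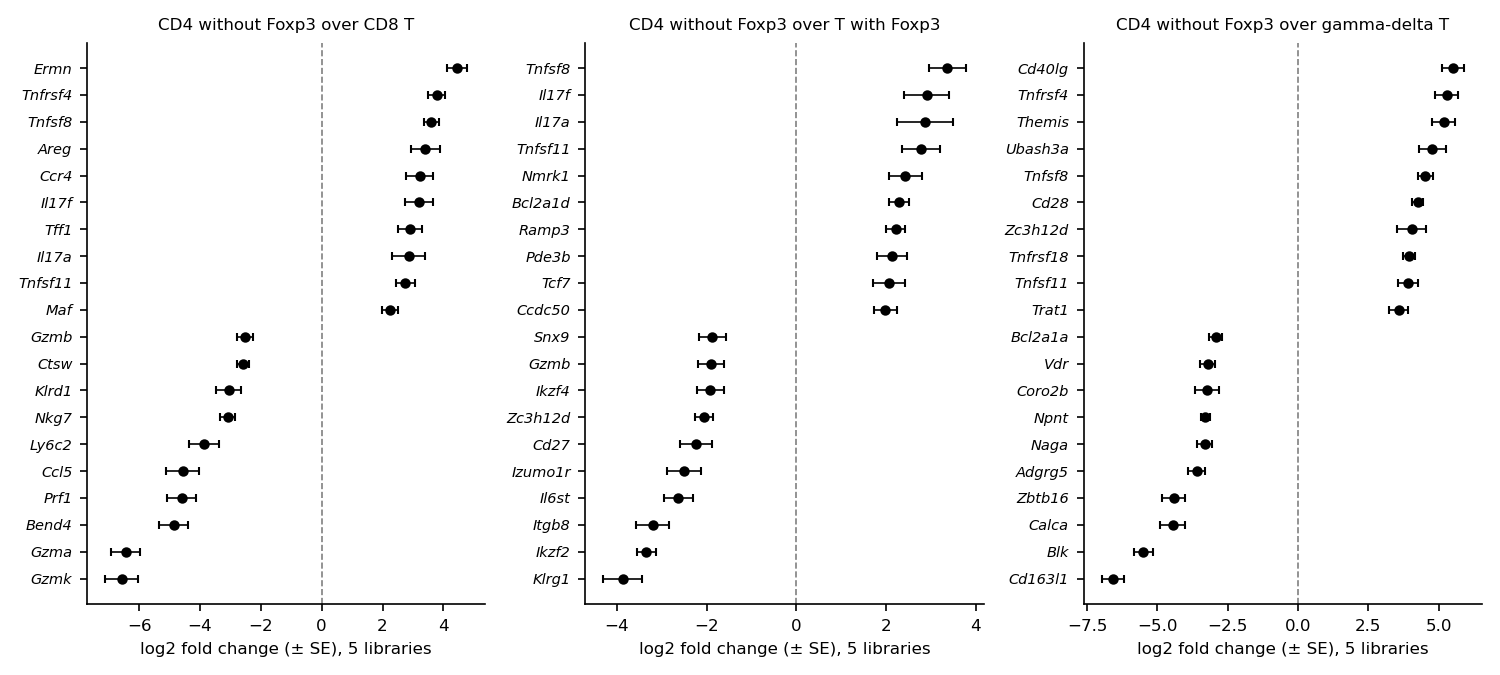
Log2 fold change of the 10 highest and 10 lowest called genes in CD4 T cells without Foxp3 over CD8 T cells (left), T cells with Foxp3 (middle) and gamma-delta T cells (right), from edgeR fits over 5 libraries. Points are fold changes and bars standard errors; cytotoxic genes lie on the left of the first panel, and Ikzf2 and Klrg1 on the left of the second.

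Genes were then compared between labels as ratios of CPM of summed UMIs, with exact Poisson intervals. A gene was called with a 2-fold ratio, 30 UMIs over both libraries, 50 CPM in the higher one and a 95% interval without 1. Each of the 3 patch comparisons used the same irradiated library of 78 members, so they share its sampling error and are given side by side. Pretreatment, with 10 members, was left out. The median gene's log2 ratio was -0.13 in chronic over irradiated and -0.17 in continuous over irradiated, and the ratios and calls were not centred on that shift.

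In continuous over irradiated, 177 of 3624 genes were higher (4.88%) and 445 lower (12.3%). Among these calls, 13 higher and 250 lower ones fell below 0.5 times the CPM of the highest class of other cells. Without mitochondrial and ribosomal genes in the totals the split was 283 higher to 322 lower, and without each gene's highest member in each library it was 238 to 297. Of 14 type 17 genes, 5 were higher and 0 lower, with a median log2 ratio of 0.83 beside -0.17. Il22 was 22.9 times as high in continuous as in irradiated (12.4 to 47.8), on 1047 UMIs in 40 members and 10 UMIs in 4 members. Il17f was 4.41 times as high (3.78 to 5.19), Il17a 3.17 times (2.65 to 3.81) and Tmem176a 2.59 times (1.73 to 4.03), and all 4 remained called without their highest member. The call of Il21 rested on 1 cell with 79 of 88 UMIs. Areg was 3.32 times as high (2.52 to 4.44), and Gapdh, a glycolysis enzyme, 2.70 times (2.27 to 3.24).

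Of 12 type 1 genes, 6 were lower in continuous and 0 higher (median -1.19). Tnf was at 61.8 CPM in continuous and 345 CPM in irradiated, a ratio of 0.179 (0.125 to 0.256), and Ifng at 51.3 and 254 CPM, a ratio of 0.202 (0.134 to 0.304). Il10, a regulatory cytokine, was at 0.0643 times (0.0283 to 0.133), on 10 UMIs in continuous and 34 in irradiated. Over all libraries, an Il10 UMI was found in 9.36% of members and in 25.9% of myeloid cells. Of 22 early activation genes, 8 were lower, Egr1 at 0.404 times (0.293 to 0.563) among them, and 1 was higher. Ccr7, the receptor that guides T cells to lymph nodes, was at 0.107 times (0.062 to 0.18). Neutrophil and dendritic marker RNA moved the same way: the neutrophil list summed to 1877 CPM in continuous and 14233 in irradiated, and the dendritic list to 170 and 2190 CPM. Tnf, Il10, Ccr7 and Egr1 are also made by such cells, and the part of that RNA in these ratios was not tested.

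In chronic over irradiated, 122 of 3545 genes were higher (3.44%) and 277 lower (7.81%). Of the calls, 17 higher and 148 lower ones fell below 0.5 times the CPM of the highest class of other cells. The split was 173 to 236 without mitochondrial and ribosomal genes in the totals, and 150 to 174 without each gene's highest member. Of 24 cell cycle genes, 9 were lower and 0 higher (median -0.85 beside -0.13). Top2a, which untangles DNA in dividing cells, stood at 123 CPM in chronic and 359 CPM in irradiated, a ratio of 0.343 (0.251 to 0.471), and Ube2c, a mitotic enzyme, at 0.228 times (0.136 to 0.381). Members with a UMI of Mki67 or Top2a were 22.3% in chronic (17.1 to 28.2) and 38.5% in irradiated (27.7 to 50.2). Thinned to 1000 UMIs, they were 13.0% in chronic (8.94 to 18.0) and 27.7% in irradiated (17.3 to 40.2), intervals that overlapped.

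Of 12 type 17 genes, 3 were higher in chronic and 0 lower. Il22 was 3.83 times as high (2.02 to 8.17) and Tmem176a 2.39 times (1.59 to 3.74). Il17a was 2.16 times as high (1.80 to 2.61), and 1.88 times and not called without its highest member in each library. Tcf7 was 2.33 times as high (1.28 to 4.65) and Areg 2.45 times (1.85 to 3.29). Ctla4 was at 0.441 times (0.377 to 0.518) on 414 UMIs in chronic and 257 in irradiated, Tnf at 0.289 times (0.207 to 0.405) and Il10 at 0.0806 times (0.0355 to 0.167). Cells with under 2 Cd3 UMIs held 87.1% of all Il10 UMIs in chronic and 95.7% in irradiated. Gata3, the type 2 regulator, was at 0.401 times (0.282 to 0.574). Here too the neutrophil list was lower, at 6152 CPM in chronic and 14233 in irradiated, as was the dendritic list, at 860 and 2190 CPM, and their part was not tested. Ptcra, the pre-T cell receptor chain of thymocytes, and Krt35, a hair keratin, had 99 and 58 UMIs in chronic and 0 in irradiated, and came from the same 1 member.

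In acute over irradiated, 98 of 2403 genes were higher (4.08%) and 66 lower (2.75%). Of the calls, 56 higher and 10 lower ones fell below 0.5 times the CPM of the highest class of other cells. Without each gene's highest member, 43 of the 98 higher calls remained, 44 fell out of the test for too few UMIs and 11 were tested and not called. The 8 genes with the highest ratios were Cfd, Car3, Retn, Hp, Trf, Lrg1, Pck1 and C3, among them adipocyte and acute-phase genes. Each had 0.5 or more of its UMIs in the same 1 member, and Cfd had 280 UMIs in acute and 0 in irradiated. Of 21 early activation genes, 5 were higher and 1 lower (median 0.41 beside -0.05). Jun stood at 469 CPM in acute and 120 CPM in irradiated, a ratio of 3.91 (2.50 to 6.34), on 30 and 14 members. Fos was 2.88 times as high (1.94 to 4.37) and Egr1 2.43 times (1.78 to 3.34), and these 3 remained called without their highest member. The fibroblast list summed to 5955 CPM in acute and 3249 CPM in irradiated, and its part in these ratios was not tested.

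Il17a was 2.59 times as high in acute as in irradiated (2.11 to 3.19), while Il17f, at 1.34 times (1.09 to 1.65), was not called. Ifng had 4 UMIs in 1 member in acute and 53 UMIs in 11 members in irradiated, a ratio of 0.0769 (0.0202 to 0.209). Of those 53 UMIs, 31 lay in 1 member, and without the highest member Ifng had too few UMIs to be tested. Gata3 was at 0.273 times (0.143 to 0.489), Cd28 at 0.377 times (0.26 to 0.536), and Gimap3, a GTPase of lymphocyte survival, at 0.175 times (0.06 to 0.42). These 3 remained called without their highest member.

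In irradiated over normal, 65 of 2126 genes were higher (3.06%) and 51 lower (2.40%). Of the calls, 31 higher and 12 lower ones fell below 0.5 times the CPM of the highest class of other cells. Without each gene's highest member, 40 higher and 32 lower calls remained, while 22 and 12 fell out of the test for too few UMIs. The B and plasma cell list summed to 211 CPM in irradiated and 11581 CPM in normal, and the neutrophil list to 14233 and 10211 CPM, and their part in these ratios was not tested. Il22 was lower in irradiated, at 0.12 times (0.055 to 0.237), on 10 UMIs in 4 members and 61 UMIs in 11 members. Il17f was 2.07 times as high (1.53 to 2.83) while Il17a was at 0.989 times (0.756 to 1.30). Ikzf2 stood at 144 CPM in irradiated and 437 CPM in normal, a ratio of 0.329 (0.206 to 0.513). Gata3 was 2.16 times as high (1.27 to 3.86) and Top2a 2.75 times (1.66 to 4.76). Ifng was 2.16 times as high (1.25 to 3.92), but 1.34 times and not called without its highest member. Of 8 type I interferon-stimulated genes, 3 were higher, Ifi203, Isg15 and Bst2, and 0 lower.

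Genes linked to iron, hypoxia and DNA damage were given because of the labels. Of the iron handling genes, 0 were called in acute or chronic over irradiated, 2 of 8 were lower in continuous (Fbxl5 and Hmox1), where 12.3% of all genes were, and 1 of 6 was lower in irradiated over normal (Hmox1), where 2.40% of all genes were. Tfrc, the transferrin receptor, stood at 74.3 CPM in continuous, 146 in acute, 78.8 in chronic, 139 in irradiated and 144 in normal, and was not called in any comparison. Cdkn1a, the p53 target that encodes p21, stood at 274, 556, 299, 388 and 320 CPM in the same order and was not called either. Of the p53 list, Trp53 was higher and Gadd45a and Gdf15 were lower in chronic (of 12 tested), Gadd45a and Mdm2 were lower in continuous (of 11), and Gadd45b was higher and Trp53inp1 lower in irradiated over normal (of 10), while 0 of 11 were called in acute. Of the hypoxia and glycolysis list, Slc16a3 and Vegfa were higher in acute (of 22), and Tpi1, P4ha1 and Pgam1 were lower in chronic (of 23). In continuous, Eno1 and Gapdh were higher and Hilpda, Bnip3 and P4ha1 lower (of 24), and in irradiated over normal 0 of 18 were called. Shares over all tested genes were 4.08% higher and 2.75% lower in acute, and 3.44% and 7.81% in chronic. They were 4.88% and 12.3% in continuous, and 3.06% and 2.40% in irradiated over normal. In continuous, 8.33% of the hypoxia list was higher and 12.5% lower, and 18.2% of the p53 list was lower. With lists this small, no list is read as changed.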

How the data were processed

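The authors deposited 1 matrix of counts per library, with UMIs of each gene in each barcode; per the file headers, Cell Ranger 6.0.0 wrote them. Cell Ranger, Seurat 5.0.1 and the pig build Sscrofa11.1 are named in the submitters' processing notes, while the features are mouse genes; the mouse build is not given in the sources used here. Antibody counts in the deposited matrices of 4 libraries were kept out of gene totals. Libraries held 1811 to 25052 barcodes and 18611144 to 54966435 gene UMIs.

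Cells were filtered and chosen by the stated UMI rule. The members and gene lists were chosen with earlier results of these data known. Doublets were called with Scrublet (scanpy 1.11.5) and left out only in an alternative; where its own threshold marked under 0.5% of cells, the highest scores were taken, at 0.8% per 1000 barcodes up to 10%. Thinning drew 1000 UMIs per cell without replacement and left out shallower cells. Differences between labels have no test, as there was 1 library per label; shares carry Clopper-Pearson and ratios exact conditional Poisson intervals at 95%, which cover counting error only. Classes of T cells were summed per library and fitted with edgeR 4.0.16 (R 4.3.3), with DESeq2 1.42.0 as an alternative, in libraries with 20 cells of both classes. Class and library share cells of 1 matrix, so the library is the block. The fits were tested on simulated data.

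Named genes are the 8 highest and 8 lowest called per label comparison and the 10 highest and 10 lowest called per class, of which the text gives a part and some withheld genes are not reported here, besides list members with 20 UMIs. A gene named by rank had to reach 0.5 times the CPM of the highest of 7 classes of other cells in the same libraries. List members and the counts of called genes were not held to this. Mitochondrial, ribosomal, haemoglobin, immunoglobulin and receptor segment genes were left out. Alternatives were doublet removal, 1000 UMIs per cell, thinning, 60 UMIs per gene, other totals, no filter, DESeq2, no block and leaving out each library; ratios without each gene's highest member were added after seeing the data. Gene length and strand play no part in the comparisons.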

Additional observations from a re-analysis of the deposited data

Results flagged for a closer look

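The antibody counts were not part of any comparison. They were present in members of 4 libraries, with a median of 1177 antibody UMIs per member in acute, 2162 in chronic, 1755.5 in irradiated and 1804 in normal, and none in pretreatment and continuous, which hold no antibody features. By each member's most frequent tag, 40 members of acute had tag 7 and 41 tag 8, 227 of 233 in chronic had tag 8, 71 of 78 in irradiated had tag 7 and 58 of 61 in normal had tag 7. The most frequent tag held a median of 43.2% of a member's antibody UMIs in acute, 62.6% in chronic, 42.4% in irradiated and 82.0% in normal. No source tied tags to animals, so no sample was split by them.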

How the results depend on the processing

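Thinned to 1000 UMIs, members were 0.143% of kept cells in pretreatment, 0.571% in continuous, 0.142% in acute, 0.828% in chronic, 0.156% in irradiated and 0.202% in normal, and of Cd3-positive cells 5.00% (pretreatment), 9.96% (continuous) and 8.61% (chronic). With 1000 UMIs per cell the acute share of kept cells was 0.457%, and without doublets the irradiated share of Cd3-positive cells 11.8%. Thinned Il17 shares were 39.4% in chronic, Ifng 7.79% in chronic, and Il4, Il5 or Il13 3.88% in continuous and 0.866% in chronic; without doublets Ifng in acute was 0%. With 60 UMIs per gene, higher and lower calls were 42 and 19 in acute, 112 lower in chronic, 232 lower in continuous, and 21 and 20 in irradiated over normal. Thinned, they were 23 and 21 in acute, 58 and 100 in chronic, 64 and 117 in continuous, and 31 and 18 in irradiated over normal. Without mitochondrial and ribosomal totals 283 genes were higher in continuous. Without each gene's highest member, chosen after seeing the data, 59 were higher in acute and 174 lower in chronic. The cause was not tested. With no filter beyond 1 UMI, the class fits called 194 higher and 114 lower (CD8), 154 and 115 (Foxp3) and 223 and 298 (gamma-delta). With no replicate block they called 28 and 38 (Foxp3) and 86 higher (gamma-delta), and lost Il17a in all 3 fits. Leaving out 1 library each gave 61 to 88 higher and 39 to 56 lower for CD8, 30 to 63 and 35 to 78 for Foxp3, and 93 to 156 and 118 to 194 for gamma-delta. Of values of single genes in the class fits, 769 kept their side of the threshold, 11 lost and 11 gained a call, and none turned direction where called. A planned fit between 2 subsets of members was not run, since 20 cells of both were reached in 1 library. Members are few, so a share of 0 in pretreatment allows up to 30%, and cells are not replicates.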

Other observations

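Members supplied only part of each library's interleukin RNA. Of all Il17a UMIs of the library, 26.1% lay in members in continuous, 4.37% in acute, 12.4% in chronic, 1.88% in irradiated and 2.79% in normal, and 0 in pretreatment. Of the Il17f UMIs, 34.3%, 7.26%, 21.3%, 4.07% and 2.46% lay in members in the same 5 libraries, and of the Il22 UMIs 31.1%, 4.45%, 12.5%, 0.966% and 4.60%. Gamma-delta T cells held 36.2%, 7.05%, 30.6%, 20.8% and 29.2% of the Il17a UMIs there. Cells with under 2 Cd3 UMIs held 9.34%, 67.6%, 13.1%, 44.7% and 30.4% of the Il17a UMIs, which covers T cells whose Cd3 RNA was not captured and other cells alike.

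Single members also decided some sums of other cell types' RNA. In chronic, 1 member held 2192 of 2220 Igkc UMIs, and in normal 1 member held 1007 of 1009. In continuous, 1 member held 834 of 904 Hbb-bs UMIs.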
